A study of Homo sapiens with 4 samples.

Results

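Receptor tyrosine kinases were followed in PC3 cells after depletion of COUP-TFII. PC3 cells are an established human line that was grown from a bone metastasis of a prostate cancer, and COUP-TFII is a transcription factor of the orphan nuclear receptors. Both groups were transfected with 40 nM of siRNA duplexes and sampled at 48 h, and they differed in the target of the duplex. One group received COUP-TFII siRNA and the other control siRNA, with 2 arrays in each group. The series holds 1 cell line, and the sources used here do not say whether the 2 arrays of a group came from separate transfections, so the spread behind the p-values is that between these arrays and may be technical. The members were the probe sets that the array's probe table assigns to exactly 1 gene of a list of 47 receptor tyrosine kinases, without IGF1R. This gave 148 probe sets for 45 of the 47 genes, out of 19775 genes with such a probe set. DDR1 was named in the probe table only together with a microRNA gene, and EPHB2 had no single-gene probe set in the table used here, so neither was analysed.

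Receptor tyrosine kinases are single-pass membrane proteins whose outer part binds a ligand and whose inner part phosphorylates tyrosines. Ligand binding brings receptors together, the phosphorylated tails recruit adaptors such as GRB2 and SHC1, and the signal passes to RAS, PI3 kinase and phospholipase C. CBL ubiquitin ligases and Sprouty proteins damp the signal. In prostate cancer cells EGFR, MET, AXL and Eph receptors are known for roles in growth, migration and invasion.

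The cells carried the transcripts of an epithelial cancer line. The array intensities were bright for KRT8 and KRT18, the keratins of simple epithelia, at 4190 to 4826 and 8805 to 9941, and all 7 genes of a list of PC3 markers lay above the background level. Of these 7 genes KRT8 and KRT18 rose, by 0.16 and 0.13 on the log2 scale. EPCAM, CDH1, VIM and CD44 passed as lower, with log2 fold changes of −0.24, −0.30, −0.36 and −0.72, and PLAU did not pass. KLK3 and KLK2, which encode prostate-specific secreted proteases, did not, at 8.56 to 25.9 and 9.57 to 22.6. TMPRSS2, a membrane protease and the third measured gene of the luminal prostate list, lay above the level and rose, at 391 and 392 in COUP-TFII siRNA cells, against 132 and 157 in control siRNA cells. The background level was the 95th percentile, on each array, of 54 measured genes that are restricted to other tissues, and it lay between 63.7 and 80.7. Of these 54 genes 3 lay above the level themselves, MBP at 495 to 831, TNNI3 at 115 to 191 and SFTPC at 92.1 to 103. A gene counted as expressed where its representing probe set exceeded that level on both arrays of at least 1 group. Array medians over all probe sets lay between 31.7 and 32.9. ACTB has control probe sets at its 3′ and 5′ ends, whose ratio tells of RNA integrity. It was 1.42 and 1.46 in the COUP-TFII siRNA arrays and 1.52 and 1.83 in the control siRNA arrays. The same ratio for GAPDH was 0.994 and 0.986 in the COUP-TFII siRNA arrays, against 0.957 and 0.986 in the control siRNA arrays. The part of RNA integrity in the results was not tested. In the endothelial marker list 2 of 8 genes lay above the background level, and its summed intensity was 691 to 808 in COUP-TFII siRNA arrays and 506 to 540 in control siRNA arrays. These 2 genes were ROBO4, which rose, at 430 and 393 in COUP-TFII siRNA cells, against 229.5 and 221 in control siRNA cells, and PECAM1, which did not pass, at 244 and 193 in COUP-TFII siRNA cells, against 171 on both control arrays. The other 6, VWF and CDH5 among them, lay at 1 to 52.6. Of 7 measured leukocyte markers 1 lay above the level, with summed intensities of 1462 to 1509 in COUP-TFII siRNA arrays and 1011 to 1029 in control siRNA arrays, and the gene above it was LCP1, which rose, at 1339 and 1308 in COUP-TFII siRNA cells, against 875 and 917 in control siRNA cells. The other 6, PTPRC among them, did not pass, at 1 to 79.5. Of 8 fibroblast and smooth muscle markers 2 lay above it, with sums of 1190 to 1206 in COUP-TFII siRNA arrays and 861 to 916 in control siRNA arrays. These were COL1A1, which rose, at 962 and 950 in COUP-TFII siRNA cells, against 599 and 540 in control siRNA cells, and DES, which fell, at 51.4 and 51.0 in COUP-TFII siRNA cells, against 81.8 and 110 in control siRNA cells. The other 6, DCN among them, did not pass, at 7.47 to 85.3. The part of these 3 marker lists in the results was not tested.

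After COUP-TFII siRNA the receptor genes moved in both directions. AXL and ROR1 fell to 0.369 and 0.294 of their control levels, and EPHA4 and EPHB6 rose 2.42-fold and 2-fold. ERBB2 and ERBB3 rose and MET, EPHA1, EPHA2 and EPHB4 fell, by at most 1.33-fold. ERBB4 rose and LTK fell at intensities that were not above the background level. In all, 12 of the 45 genes passed (limma adjusted p under 0.05, Benjamini-Hochberg over all genes), 5 higher and 7 lower, which is 26.7% against 23.1% of all genes. Of the 20 receptor genes above the background level 10 passed, 4 higher and 6 lower, which is 50% against 41.3% of the genes above that level. Leaving out an array left 1 higher without COUP-TFII siRNA replicate 1, 2 without control replicate 2 and 3 without either other array, and 2 lower without either control array, 3 without COUP-TFII siRNA replicate 1 and 5 without COUP-TFII siRNA replicate 2. The shares of the receptors lay near those of all genes, so their number of calls is not a result about receptors. The median log2 fold change was −0.08 over the 45 receptor genes and 0.01 over all genes. It was 0.10 after centring on the housekeeping gene median, a scaling that shifted the all-gene median by 0.18. Of the 24 measured housekeeping genes 4 passed as higher and 3 as lower. Their median change was −0.04 on the log2 scale, so the shift of 0.18 does not measure how far they typically moved. Centring on their mean, chosen after seeing the data, shifted the all-gene median by 0.0088. It left 5 receptor genes higher and 7 lower. Fold changes are differences of log2(intensity + 16), COUP-TFII siRNA minus control siRNA, which understate changes of dim genes. In bulk RNA, fewer cells with a transcript and less of it per cell cannot be told apart.

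**Figure D1:**
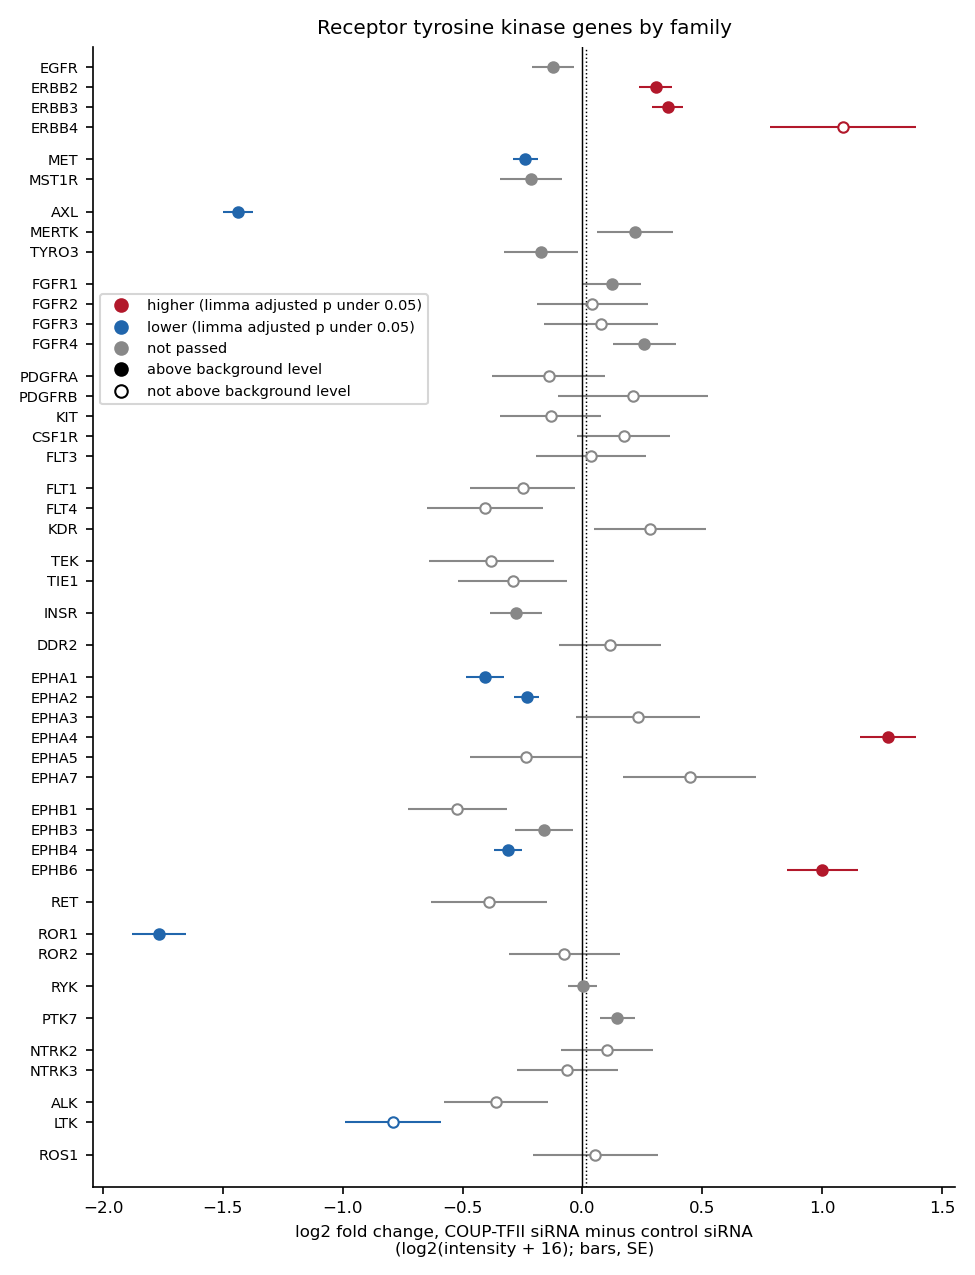
Log2 fold changes of the 45 receptor tyrosine kinase genes (COUP-TFII siRNA minus control siRNA; horizontal bars, SE from limma), grouped by family down the page. Red genes passed as higher, blue as lower and grey did not pass; open circles mark genes not above the background level, and the dotted line marks the median of all genes. AXL at −1.44 and ROR1 at −1.77 lie farthest left, and EPHA4 at 1.28 farthest right.

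The TAM family (TYRO3, AXL and MERTK) binds the vitamin K-dependent proteins GAS6 and PROS1. AXL, the member best known from invasive and drug-tolerant carcinoma cells, had intensities of 804 and 839.7 in COUP-TFII siRNA cells, against 2351 and 2160.3 in control siRNA cells. Both COUP-TFII siRNA arrays lay far below both control arrays. The log2 fold change was −1.44 ± 0.06 (SE; limma adjusted p = 2.09e-06), and it lay between −1.50 and −1.38 when any 1 array was left out. Averaged over both AXL probe sets it was −0.95 and still passed. A dimmer AXL probe set read 54.0 and 54.4 in COUP-TFII siRNA cells and 80.9 and 80.6 in control siRNA cells, which did not pass when probe sets were tested singly (log2 fold change −0.46 ± 0.16, SE; limma adjusted p = 0.126). MERTK, a receptor of phagocytes and of some tumour cells, read 105 and 98.5 in COUP-TFII siRNA cells, against 77.9 and 92.6 in control siRNA cells. MERTK lay just inside the background level, and it did not pass (95% interval of the log2 fold change −0.14 to 0.58). TYRO3 read 101 and 127 in COUP-TFII siRNA cells and 122 and 138 in control siRNA cells, with groups that overlapped (95% interval −0.52 to 0.18). The ligand genes GAS6 and PROS1 did not pass either. PROS1 read 635 and 646 in COUP-TFII siRNA cells, against 602 and 605 in control siRNA cells. GAS6 read 165 and 181 in COUP-TFII siRNA cells, against 188 and 177 in control siRNA cells.

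ROR1 and ROR2 are receptors of the Wnt family ligand WNT5A, with weak or no kinase activity of their own. ROR1, an oncofetal receptor, had intensities of 155 and 145 in COUP-TFII siRNA cells and 603 and 498 in control siRNA cells. Both COUP-TFII siRNA arrays lay far below both control arrays. This was the largest change of the 20 expressed receptor genes, with a log2 fold change of −1.77 ± 0.11 (SE; adjusted p = 1.08e-05 in limma), from −1.90 to −1.63 with any 1 array left out and −1.08 averaged over its 3 probe sets, where it still passed. A further ROR1 probe set read 89.3 and 89.9 in COUP-TFII siRNA cells, against 320.0 and 286 in control siRNA cells, and passed as lower too (−1.59 ± 0.11, SE; limma adjusted p = 0.000206). The third, which lay below the background level on all 4 arrays, read 37.5 and 45.3 in COUP-TFII siRNA cells and 35 and 38.3 in control siRNA cells. ROR2 was not detected above the background level, at 1.01 to 5.94. The ligand gene WNT5A also fell. It read 353 and 319 in COUP-TFII siRNA cells and 593 and 512 in control siRNA cells, a log2 fold change of −0.69 ± 0.10 (SE; adjusted p = 0.00096 in limma), with both of its probe sets passing. RYK, a further WNT receptor with an inactive kinase, did not differ beyond its spread. It read 1387 and 1285 in COUP-TFII siRNA cells, against 1323 and 1345 in control siRNA cells (95% interval −0.14 to 0.14). PTK7, a pseudokinase of the same signalling branch, read 575 and 577 in COUP-TFII siRNA cells and 506 and 533 in control siRNA cells. It did not pass (limma adjusted p = 0.211). After centring on the housekeeping gene median, which added 0.18 to every gene, it did (limma adjusted p = 0.00992, the lowest of a range of 0.00992 to 0.983 over 14 alternatives).

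Eph receptors bind membrane-bound ephrins on neighbouring cells and guide cell sorting, adhesion and repulsion. Of the 6 EPHA genes 1 rose, 2 fell and 3 did not pass, and of the 4 measured EPHB genes 1 rose, 1 fell and 2 did not pass. Of each family 3 genes were above the background level. Of these EPHA1, EPHA2, EPHA4, EPHB4 and EPHB6 passed and EPHB3 did not, against 41.3% of all genes above that level. With so few genes, and with both directions among them, these counts are not a result about Eph receptors. EPHA4, which binds ephrins of both classes, read 284 and 286 in COUP-TFII siRNA cells, against 114 and 103 in control siRNA cells. Its groups lay well apart, with a log2 fold change of 1.28 ± 0.12 (SE; adjusted p = 8.11e-05 in limma), from 1.21 to 1.34 with any 1 array left out and 0.81 averaged over its probe sets, where it still passed. Of its 5 probe sets 2 passed as higher. The other passing one read 138 and 131 in COUP-TFII siRNA cells and 46.9 and 38.0 in control siRNA cells. Its 2 next brightest had higher values on both COUP-TFII siRNA arrays but did not pass (limma adjusted p = 0.061 and 0.0947), and the dimmest was at 2.42 to 8.75. EPHB6, whose kinase domain is catalytically inactive, read 363 and 296 in COUP-TFII siRNA cells and 136 and 178 in control siRNA cells. Its only single-gene probe set gave a log2 fold change of 1.0 ± 0.15 (SE; adjusted p = 0.00122 in limma). EPHB6 passed in 12 of 14 alternatives. It lost its call with 1 prior variance for all genes, and without COUP-TFII siRNA replicate 1, where the log2 fold change was 0.86.

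The Eph receptors that fell did so by smaller amounts. EPHA2, the Eph receptor most studied in carcinoma, read 2677 and 2839.7 in COUP-TFII siRNA cells, against 3299 and 3182 in control siRNA cells, a log2 fold change of −0.23 ± 0.05 (SE; adjusted p = 0.0115 in limma). EPHA1 read 412 and 446.5 in COUP-TFII siRNA cells and 585 and 563 in control siRNA cells, a log2 fold change of −0.41 ± 0.08 (SE; adjusted p = 0.00562 in limma). EPHB4, the receptor of ephrin B2, read 893 and 888 in COUP-TFII siRNA cells, against 1099.9 and 1116 in control siRNA cells, a log2 fold change of −0.31 ± 0.06 (SE; adjusted p = 0.00514 in limma). In each of the 3 genes both COUP-TFII siRNA arrays lay below both control arrays. Tested singly, the only EPHA2 probe set passed, as did 1 of 3 for EPHA1 and 1 of 2 for EPHB4. None of these 3 calls held after centring on the housekeeping gene median, which added 0.18 to every gene's log2 fold change. There the values were −0.05 for EPHA2, −0.23 for EPHA1 and −0.13 for EPHB4. EPHA2 passed with all arrays but not without COUP-TFII siRNA replicate 1, control replicate 1 or control replicate 2 (limma adjusted p = 0.0875, 0.161 and 0.108), EPHA1 not without the same 3 (0.0573, 0.0899 and 0.0696) and EPHB4 not without control replicate 1 or 2 (0.0698 and 0.086). EPHB3 was expressed and did not pass, at 163 and 159 in COUP-TFII siRNA cells and 171 and 193 in control siRNA cells. EPHA3, EPHA5, EPHA7 and EPHB1 were not above the background level, at 6.41 to 36.6. Among the ephrin ligands EFNA4 rose, at 821 and 861 in COUP-TFII siRNA cells, against 545 and 509.7 in control siRNA cells (log2 fold change 0.66 ± 0.07, SE; limma adjusted p = 0.000233). EFNB3, named after its values were seen, rose by 0.39 on the log2 scale, and the other 6 measured ephrin genes did not pass.

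**Figure D2:**
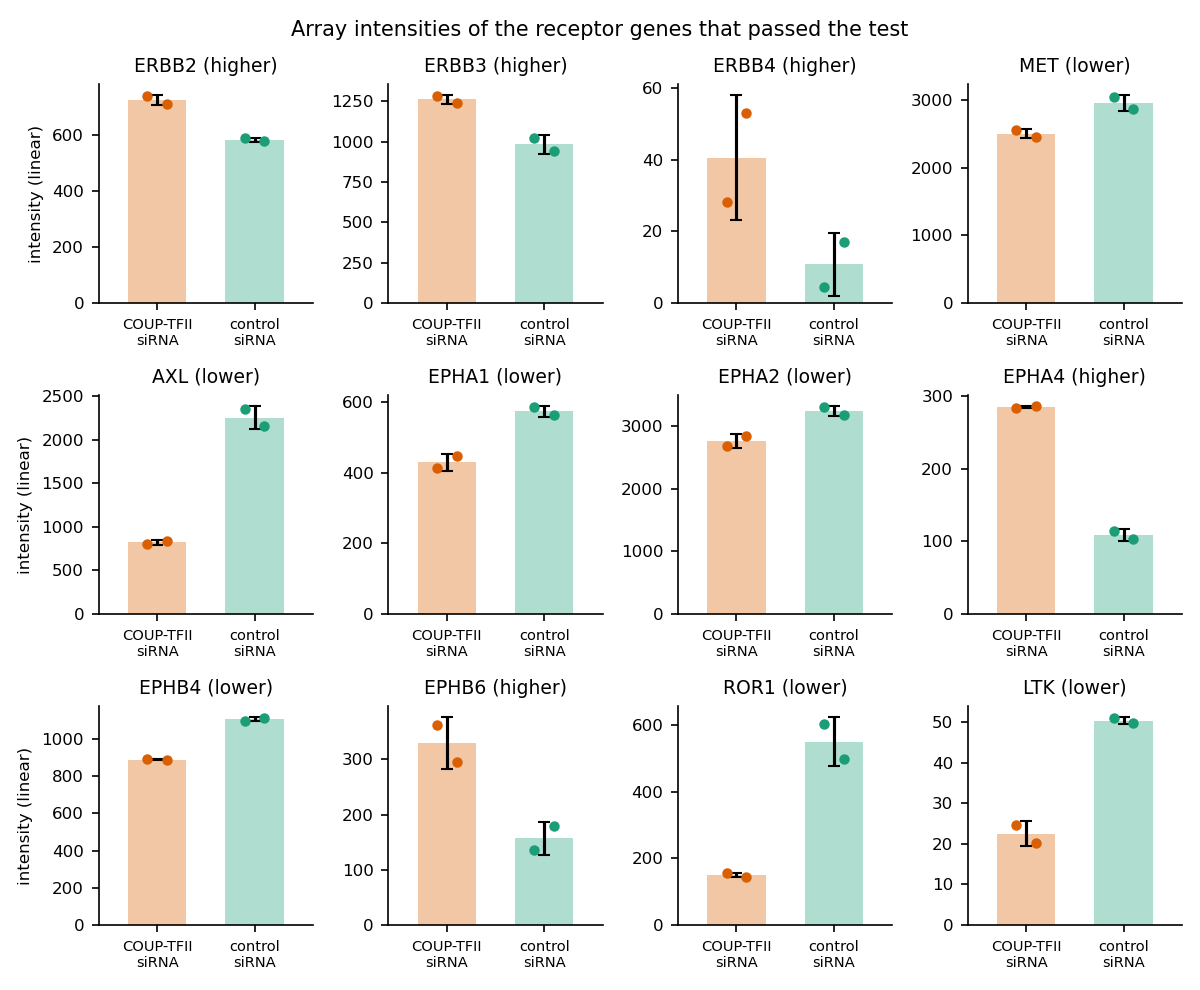
Array intensities (linear axes from 0) of the 12 receptor genes that passed, COUP-TFII siRNA left and control siRNA right in each panel. Points are single arrays, bars are means and whiskers are SD (n = 2). In the AXL panel the COUP-TFII siRNA arrays are at 804 and 839.7, far under the control arrays; ERBB4 and LTK have axes that end near or below 60, under the background level.

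The sequence before the transcription start is shown for the 4 expressed receptor genes that changed at least 2-fold, AXL and ROR1 downward and EPHA4 and EPHB6 upward, since COUP-TFII binds DNA. The windows are the 250 bases before each start that RefSeq annotates (GRCh38.p14), from 5′ to 3′ on the gene's strand, and AXL and EPHA4 have 2 starts each. Capitals mark the motif GGGCGG or its reverse complement CCGCCC, the GC box of SP1-type factors. The hexamer bound by nuclear receptors, AGGTCA or TGACCT, was searched on both strands and was not in these letters of the 6 windows.
AXL start 1, chr19:41218973-41219222, plus strand: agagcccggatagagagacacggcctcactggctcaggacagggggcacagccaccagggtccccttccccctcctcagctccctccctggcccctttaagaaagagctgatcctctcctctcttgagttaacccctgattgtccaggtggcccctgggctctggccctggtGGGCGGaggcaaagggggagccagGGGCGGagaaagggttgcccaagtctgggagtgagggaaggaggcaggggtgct
AXL start 2, chr19:41226505-41226754, plus strand: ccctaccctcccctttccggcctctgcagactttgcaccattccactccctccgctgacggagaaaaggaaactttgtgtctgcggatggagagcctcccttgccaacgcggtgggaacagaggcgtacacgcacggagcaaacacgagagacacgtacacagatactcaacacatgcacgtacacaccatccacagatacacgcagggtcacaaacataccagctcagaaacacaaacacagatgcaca
ROR1, chr1:63773767-63774016, plus strand: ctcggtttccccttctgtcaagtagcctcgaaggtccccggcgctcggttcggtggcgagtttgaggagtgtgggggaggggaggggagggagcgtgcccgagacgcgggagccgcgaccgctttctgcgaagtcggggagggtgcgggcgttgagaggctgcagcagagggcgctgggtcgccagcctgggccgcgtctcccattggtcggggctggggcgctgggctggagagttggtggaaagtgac
EPHA4 start 1, chr2:221574203-221574452, minus strand: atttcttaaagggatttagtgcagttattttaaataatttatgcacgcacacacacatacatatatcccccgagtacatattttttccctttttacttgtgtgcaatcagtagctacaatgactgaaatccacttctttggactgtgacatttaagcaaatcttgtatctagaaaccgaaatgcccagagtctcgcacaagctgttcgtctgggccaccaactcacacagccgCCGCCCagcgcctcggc
EPHA4 start 2, chr2:221572305-221572554, minus strand: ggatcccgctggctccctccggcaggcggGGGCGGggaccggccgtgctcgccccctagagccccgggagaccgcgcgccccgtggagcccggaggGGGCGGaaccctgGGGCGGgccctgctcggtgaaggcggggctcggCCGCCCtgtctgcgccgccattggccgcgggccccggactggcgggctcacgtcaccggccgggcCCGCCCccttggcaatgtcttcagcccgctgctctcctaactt
EPHB6, chr7:142862506-142862755, plus strand: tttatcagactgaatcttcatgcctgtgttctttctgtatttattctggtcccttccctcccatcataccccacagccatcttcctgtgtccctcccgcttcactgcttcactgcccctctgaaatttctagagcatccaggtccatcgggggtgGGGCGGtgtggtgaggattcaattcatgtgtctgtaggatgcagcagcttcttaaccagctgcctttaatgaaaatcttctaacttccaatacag

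The GC box occurred 2 times in the first AXL window, 5 times in the GC-rich second EPHA4 window, where 78.0% of the bases are G or C, once each in the other EPHA4 window and the EPHB6 window, and not in the ROR1 window or the second AXL window. Among all 42 receptor genes with both a measured probe set and a window, the nuclear receptor hexamer was found for 2 genes, DDR2 and FGFR2, in 3.08% of 65 windows, against 12.1% of the 35116 windows of all annotated genes. The GC box was in 63.1% of the receptor windows and in 42.6% of all windows, which include those of non-coding genes. A match is a description of the letters only.

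The ErbB family holds the receptors of EGF-like ligands and neuregulins. EGFR, which binds EGF, TGFA and their relatives, read 816 and 818 in COUP-TFII siRNA cells and 979 and 813 in control siRNA cells. The groups overlapped, and it did not pass (log2 fold change −0.12 ± 0.09, SE, 95% interval −0.32 to 0.08), nor did any of its 9 probe sets. The estimate was 0.01 without control replicate 1, the higher of the control arrays. ERBB2, the co-receptor without a ligand of its own, read 738 and 712 in COUP-TFII siRNA cells, against 589 and 579 in control siRNA cells, a log2 fold change of 0.31 ± 0.07 (SE; adjusted p = 0.0113 in limma). ERBB3, a neuregulin receptor with a weak kinase that signals by pairing with ERBB2, read 1281 and 1241 in COUP-TFII siRNA cells and 1024 and 942 in control siRNA cells, a log2 fold change of 0.36 ± 0.06 (SE; adjusted p = 0.00395 in limma). In both genes the COUP-TFII siRNA arrays lay above the control arrays. A comparably bright ERBB3 probe set was higher by 0.26 ± 0.07 on the log2 scale but did not pass among single probe sets (limma adjusted p = 0.0621), and a dimmer one had a difference of −0.36 ± 0.14 (SE; limma adjusted p = 0.181). Averaged over its 5 probe sets, ERBB3 was at −0.01. For ERBB2, 1 of 3 probe sets passed as higher when tested singly, and the average over them was 0.11. ERBB2 lost its call on leaving out any 1 array (adjusted p = 0.0522 to 0.115 in limma), and ERBB3 lost its call without COUP-TFII siRNA replicate 1 (0.0642) or control replicate 2 (0.0852). ERBB4, the remaining neuregulin receptor, read 28.3 and 53.0 in COUP-TFII siRNA cells and 4.48 and 17.1 in control siRNA cells, a log2 fold change of 1.09 ± 0.30 (SE; adjusted p = 0.031 in limma). All 4 of these values lie below the background level. ERBB4 lost its call on leaving out any 1 array (adjusted p = 0.0691 to 0.264 in limma), and it did not pass among single probe sets (limma adjusted p = 0.087). Of the EGF-like ligands TGFA, named after its values were seen, fell by 0.22 on the log2 scale (limma adjusted p = 0.041), at 1125 and 1047 in COUP-TFII siRNA cells and 1304.5 and 1225 in control siRNA cells. The measured neuregulin genes were not above the background level, at 2.04 to 37.4.

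MET and MST1R bind hepatocyte growth factor and its relative MSP. MET, a driver of scattering and invasive growth, read 2558 and 2458 in COUP-TFII siRNA cells and 3046 and 2876 in control siRNA cells. The groups did not overlap, and the log2 fold change was −0.24 ± 0.05 (SE; limma adjusted p = 0.0109). Of the 4 MET probe sets 1 passed when tested singly. MET lost its call on leaving out any 1 array (adjusted p = 0.0564 to 0.16 in limma), and also after centring on the housekeeping gene median, where the log2 fold change was −0.06. This centring added 0.18 to every gene's log2 fold change. MST1R read 129 and 119.7 in COUP-TFII siRNA cells, against 148 and 145 in control siRNA cells, and did not pass (95% interval −0.51 to 0.08). The ligand genes HGF, at 14.0 to 35.4, and MST1, at 34.2 to 68.0, were not above the background level.

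**Figure D3:**
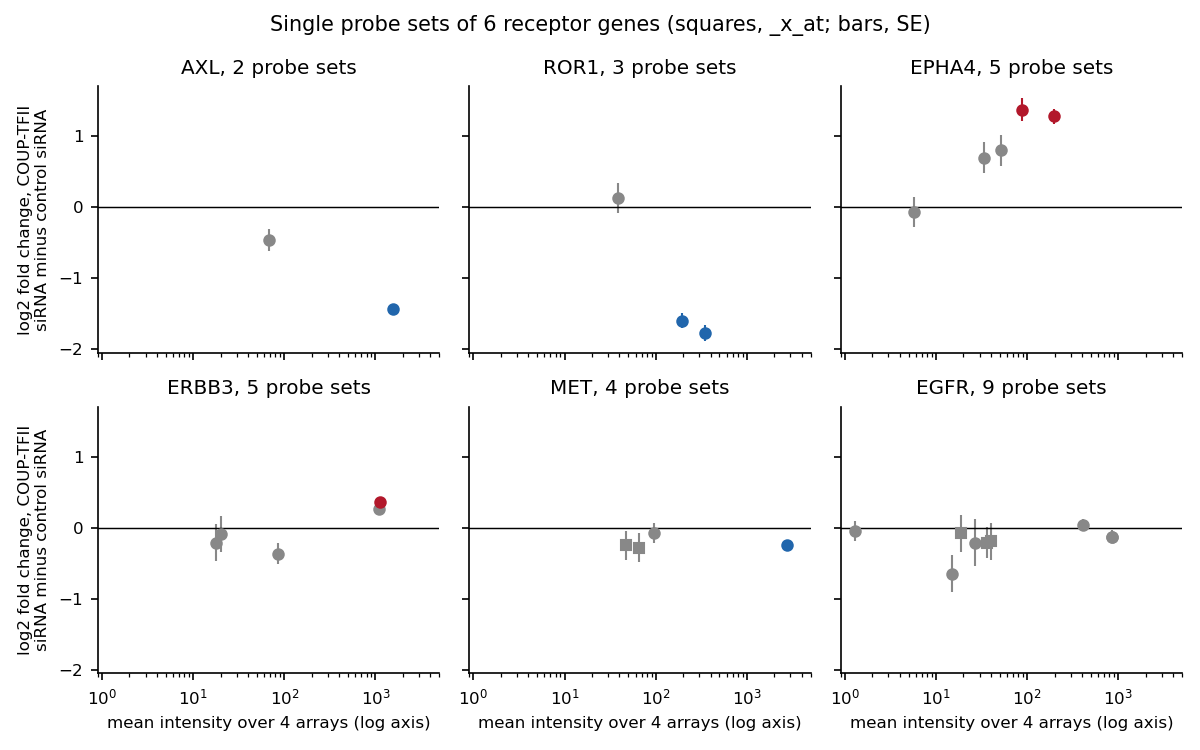
Log2 fold change (COUP-TFII siRNA minus control siRNA; bars, SE) against mean intensity over the 4 arrays (log axis) for every single-gene probe set of 6 receptor genes; squares are probe sets open to cross-hybridisation. Red and blue passed as higher and lower among all probe sets, and grey did not pass. The passing probe sets of AXL, ROR1 and EPHA4 are the brightest of their genes, and none of the 9 EGFR probe sets passed.

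When each of the 148 receptor probe sets was tested on its own, 12 passed, 5 higher and 7 lower. This is 8.11%, against 12.2% of the 54613 probe sets other than controls, of which 6.51% passed as higher and 5.67% as lower. They belonged to 10 genes, the 10 expressed receptors that passed by their representing probe set, so no receptor was called in both directions. Each gene was represented by its brightest suitable probe set, and levels of different probe sets cannot be ranked against each other.

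The remaining expressed receptors did not pass. FGFR1, the fibroblast growth factor receptor of mesenchymal tissues, read 192 and 216 in COUP-TFII siRNA cells, against 200.2 and 173 in control siRNA cells. The groups overlapped (95% interval −0.16 to 0.40), and none of its 7 probe sets passed. A brighter one, open to cross-hybridisation, read 608 and 769 in COUP-TFII siRNA cells and 615 and 553 in control siRNA cells. A dimmer one was at −0.16 on the log2 scale. FGFR4 read 139 and 136 in COUP-TFII siRNA cells and 114 and 110.5 in control siRNA cells, without overlap but short of the threshold (log2 fold change 0.26 ± 0.13, SE; limma adjusted p = 0.219). It passed as higher after centring on the housekeeping gene median (limma adjusted p = 0.0342), which added 0.18 to every gene. FGFR4 was at −0.14 when its 4 probe sets were averaged. INSR, the insulin receptor, read 194 and 178 in COUP-TFII siRNA cells and 236 and 222 in control siRNA cells. Its arrays did not overlap either, and the log2 fold change of −0.28 ± 0.11 (SE) had a limma adjusted p = 0.114, which was 0.0318 with dim genes left out of the fit.

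The receptors of vessels, blood cells, connective tissue and neurons were not detected above the background level. These were the PDGF receptor class (PDGFRA, PDGFRB, KIT, CSF1R and FLT3) at 1 to 55.5, the VEGF receptors FLT1, FLT4 and KDR at 7.42 to 49.9, the angiopoietin receptor TEK and its relative TIE1 at 3.94 to 52.3, and the collagen receptor DDR2 at 31.1 to 46.6. NTRK2 and NTRK3, receptors of neurotrophins, were at 27.4 to 58.0. Outside these classes, RET at 1.16 to 12.8, ROS1 at 13.4 to 26.9, and FGFR2 and FGFR3 at 7.81 to 46.5 were not above the level either. CSF1R and NTRK2 lay just outside the level, with highest values of 55.5 and 58.0. In all, 25 receptor genes were not above it, and 23 of these did not pass, with log2 fold changes from −0.52 to 0.45 and SE of 0.19 to 0.31, against 0.05 to 0.16 for the expressed receptors. At these intensities a change of the size seen for ERBB2 or MET was not detectable. LTK, which shares the ligand family of ALK, passed as lower at 24.6 and 20.3 in COUP-TFII siRNA cells, against 51.0 and 49.7 in control siRNA cells (log2 fold change −0.79 ± 0.20, SE; limma adjusted p = 0.0198). It lost its call on leaving out any 1 array (adjusted p = 0.0911 to 0.134 in limma). Tested singly, this LTK probe set did not pass (limma adjusted p = 0.0568), and the other LTK probe set was at 0.05 on the log2 scale. ALK was at 18.1 to 33.7 and did not pass.

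Adaptors and proximal effectors carry the signal from the phosphorylated receptor tails. Of 33 measured genes of this list, 13 rose, 2 fell and 18 did not pass, so that 39.4% were higher, against 12.8% of all genes. All 13 rises were among the 27 genes of the list above the background level. Of all genes above that level 23.0% were higher. The list's median log2 fold change was 0.18, against 0.01 over all genes and 0.055 over all genes above the level. VAV2, a guanine nucleotide exchange factor, read 619.9 and 619 in COUP-TFII siRNA cells and 317 and 327 in control siRNA cells (log2 fold change 0.91 ± 0.08, SE; limma adjusted p = 5.06e-05). SHC3, an adaptor of the SHC family, read 139.6 and 110.4 in COUP-TFII siRNA cells, against 59.0 and 41.2 in control siRNA cells. DOK4, a docking protein, read 178 and 164 in COUP-TFII siRNA cells and 96.1 and 88.8 in control siRNA cells. SOS1, the exchange factor that loads RAS, read 557 and 532 in COUP-TFII siRNA cells, against 407 and 338 in control siRNA cells, and PLCG2, a phospholipase, rose by 0.57 on the log2 scale. CRKL, an SH2 and SH3 adaptor, fell, at 493 and 484 in COUP-TFII siRNA cells and 762 and 780.0 in control siRNA cells. The count of 13 was 4 without COUP-TFII siRNA replicate 1, 7 without replicate 2, 8 without control replicate 1, 3 without control replicate 2 and 5 with probe sets averaged. Without 1 array SHC3, DOK4, SOS1 and PLCG2 each lost their call. SHC3 did so without COUP-TFII siRNA replicate 1 or 2 or control replicate 2 (limma adjusted p = 0.0994, 0.0522 and 0.067), and SOS1 without the same arrays (0.0949, 0.0723 and 0.0693). DOK4 did so without COUP-TFII siRNA replicate 1 or control replicate 2 (0.0647 and 0.0542), and PLCG2 without any 1 array (0.0995 to 0.242). Averaging left log2 fold changes of 0.16 for SHC3, 0.07 for PLCG2 and −0.08 for CRKL. Tested singly, 1 of 3 probe sets passed in the gene's direction for each of VAV2, SHC3 and DOK4. It was 1 of 2 for CRKL, 2 of 5 for SOS1 and 0 of 4 for PLCG2.

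The genes of receptor feedback and turnover, all 32 of them above the background level, held 9 that rose, 6 that fell and 17 that did not pass, with a median of 0.09. The shares of 28.1% higher and 18.8% lower lay near the 23.0% and 18.3% of genes above the background level, so they are not a result about this list. CBLB, a ubiquitin ligase that targets receptors, read 795 and 858 in COUP-TFII siRNA cells and 383 and 334 in control siRNA cells, a log2 fold change of 1.17 ± 0.09 (SE; adjusted p = 2.72e-05 in limma). Its relative CBL read 1068 and 1086 in COUP-TFII siRNA cells, against 821 and 584 in control siRNA cells. SH3KBP1, the CBL-binding adaptor of receptor endocytosis, read 3533 and 3444 in COUP-TFII siRNA cells and 1893 and 1868 in control siRNA cells, with all 3 of its probe sets passing. The receptor phosphatase gene PTPRK rose by 0.66 and SOCS5 by 0.55 on the log2 scale. Tested singly, 1 of 3 CBLB probe sets passed as higher, 2 of 5 for CBL, 1 of 2 for PTPRK and all 3 for SOCS5. SPRY4, a Sprouty inhibitor of RAS signalling, fell, at 117 and 124 in COUP-TFII siRNA cells and 243 and 234 in control siRNA cells (log2 fold change −0.90 ± 0.12, SE; limma adjusted p = 0.000568). SOCS5 did not pass without COUP-TFII siRNA replicate 1 or 2 or control replicate 2 (limma adjusted p = 0.058, 0.0579 and 0.0543). CBL did not pass without either COUP-TFII siRNA array (limma adjusted p = 0.149 and 0.152). The 9 rises were 4 without COUP-TFII siRNA replicate 1 and 5 without COUP-TFII siRNA replicate 2 or control replicate 2, and the 6 falls were 2 without either control array.

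Of 53 measured ligand genes 5 rose, 5 fell and 43 did not pass, or 9.43% in each direction against 12.8% and 10.3% of all genes. All 5 rises and 4 of the 5 falls were above the background level. Beside EFNA4 and WNT5A, PDGFA rose, at 866 and 818 in COUP-TFII siRNA cells and 496 and 494 in control siRNA cells, and PDGFD fell, at 116 and 106 in COUP-TFII siRNA cells and 241 and 206 in control siRNA cells. PDGFC, named after its values were seen, fell by 0.40 on the log2 scale (limma adjusted p = 0.00585), and PDGFB did not pass. The receptors of these PDGF ligands are PDGFRA and PDGFRB, which were not above the background level. For PDGFA and for PDGFD, 1 of 2 probe sets passed in the gene's direction when tested singly. MDK, a heparin-binding growth factor linked to ALK, rose by 0.44 on the log2 scale. FGF13, a member of the FGF family that acts inside the cell, read 330.5 and 263 in COUP-TFII siRNA cells, against 131 and 157 in control siRNA cells (log2 fold change 0.96 ± 0.14, SE; limma adjusted p = 0.0011). MDK did not pass without control replicate 1 or either COUP-TFII siRNA array (limma adjusted p = 0.138, 0.148 and 0.0621). Without single arrays the 5 rises were 3 to 4 and the 5 falls 2 to 3, lowest for rises without COUP-TFII siRNA replicate 1 or 2 or control replicate 1.

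**Figure D4:**
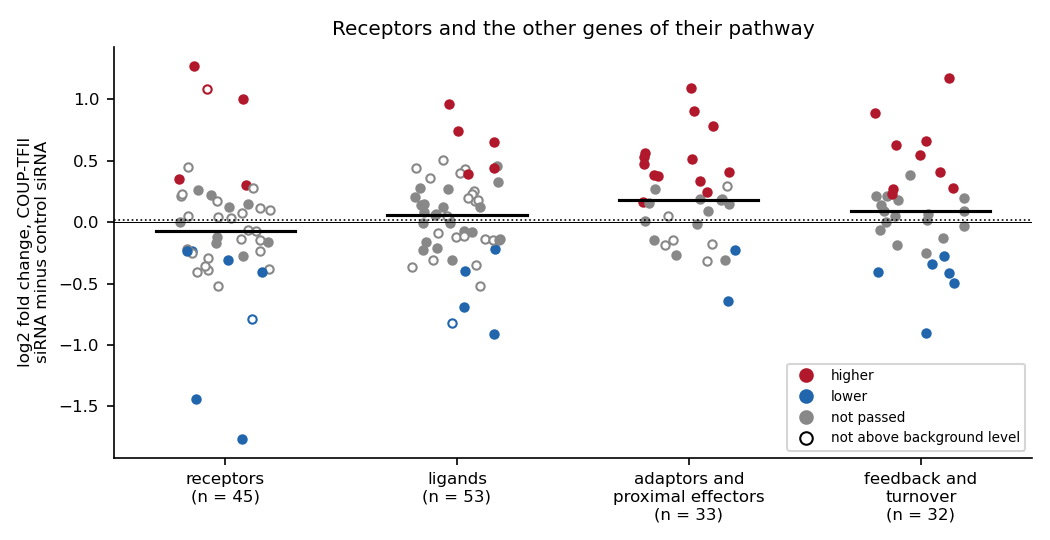
Log2 fold changes (COUP-TFII siRNA minus control siRNA) of the receptor genes and of 3 lists of other pathway genes, 1 point a gene, with the list median as a bar and the median of all genes as a dotted line. Red passed as higher, blue as lower and grey did not pass; open points were not above the background level. The adaptor list has a median of 0.18 with 13 genes higher and 2 lower, and the receptor list a median of −0.08 with 5 higher and 7 lower.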

How the data were processed

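Total RNA was labelled with biotin by a 3′ IVT kit and hybridised to 1-colour arrays, per the labels' protocols. The authors deposited probe set intensities on a linear scale for 54675 probe sets (0.61 to 15890). How probe sets were summarised and normalized is not given in the sources used here. There are no detection calls. The number of arrays limits the precision.

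Symbols of single-gene probe sets (41091) were updated through Entrez identifiers, which matched 41037. Each gene was represented by its probe set with the highest mean log2(intensity + 16), leaving out _x_at probe sets where another existed (419 genes kept one). Groups were compared with limma 3.58.1 in R 4.3.3 (lmFit, eBayes with intensity trend, no replicate block) over 19775 genes, and over 54613 probe sets, with Benjamini-Hochberg adjustment. The fit had 2 residual degrees of freedom and 8.85 after moderation. With 2 arrays against 2, the smallest two-sided p of an exact permutation test is 0.333. The test was tested on simulated data. Members and lists were chosen with earlier results of these data known. Named were members that passed or were expressed, and up to 6 passing, expressed genes with the largest change per pathway list. The level of the targeted transcript and some list genes are not reported here. Motifs were searched as exact letters. Figures used matplotlib 3.10.9.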

Additional observations from a re-analysis of the deposited data

How the results depend on the processing

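AXL, ROR1 and EPHA4 passed in the same direction under all 14 alternative fits, and EPHB6 under 12. With 1 prior variance, the receptor genes called were 1 higher and 3 lower, receptor probe sets 2 and 3, all genes 767 and 822, ligands 3 and 1, adaptors 2 and 1, and feedback genes 3 and 1. At an adjusted p under 0.01 they were 3 and 4, with 3 and 3 probe sets, 1457 and 1324 of all genes, 3 and 3 ligands and 1 lower adaptor. Averaging probe sets gave 2 and 3 receptor genes, 1631 higher genes, and 5 higher and 0 lower adaptors. Centring on the housekeeping gene median gave 3 lower receptor genes, 13 and 3 probe sets, 4976 and 1164 of all genes (81.0% higher, against 55.3%), 13 and 3 ligands, 1 lower adaptor and 17 and 3 feedback genes. Centring on their mean, chosen after seeing the data, gave 8 higher probe sets and 8 higher ligands. Leaving out dim genes gave 8 higher ligands. The median of the receptor genes was 0.10 after centring on the housekeeping median, −0.13 with 1 added before the logarithm, −0.14 without dim genes and −0.13 to −0.077 without 1 array. Leaving out 1 array gave 1 to 3 and 2 to 5 receptor genes, 1 and 3 probe sets, 865 to 1231 and 875 to 1373 of all genes, 3 to 4 and 2 to 3 ligands, 3 to 8 and 1 adaptors, and 4 to 6 and 2 to 4 feedback genes, higher and lower in turn. With the 99th percentile as background level, at 328 to 461, 11 receptor genes lay above it, and EPHA4 and EPHB6 did not. That level falls between TNNI3 and MBP, the brightest of the 54 genes, and so rests on MBP at 495 to 831. EGFR turned to 0.052, TYRO3 to 0.0038 and EPHB3 to 0.015 with the housekeeping median. Without 1 array EGFR ranged over −0.26 to 0.0080 and RYK over −0.053 to 0.056. ERBB3 was at −0.0076 and FGFR4 at −0.14 with probe sets averaged. Beyond smaller groups and fewer genes, the cause was not tested. The replicate block left 5 receptor genes higher and 7 lower, with 2858 and 2274 of all genes against 2524 and 2039 without it. Same-numbered arrays were not paired, because the labels do not say that a number marks a shared transfection. The correlation of their deviations was 0.018 over 19775 genes, which with 2 arrays a group cannot show whether they shared one. Low signal over background limits the dim receptors.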
